A study of Mus musculus with 8 samples.

Results

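The brain carries its cholesterol in particles that its own cells make, because plasma lipoproteins do not cross the blood-brain barrier. Glial cells secrete the particle proteins Apoe, Clu and Apod, the transporters Abca1 and Abcg1 load cholesterol onto them, and cells take particles up through lipoprotein receptors such as Lrp1, Lrp8 and Vldlr. Lrp8, also called ApoER2, and Vldlr are also the receptors for Reelin, the secreted protein that positions neurons during development. These 8 genes were found by symbol, each as a single row, among the 31053 genes of the count matrices of 8 droplet libraries, and were followed across 23687 cells that carried the cell type annotation deposited by the authors. The 8 genes held between 1666 (Lrp8) and 56704 (Apoe) unique molecular identifiers (UMIs, each counting 1 captured RNA molecule) in those cells.

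The cells came from the prefrontal cortex (PFC) and the striatum (labelled NAc) of male C57BL/6N mice, whose age the labels give as 8 to 10 weeks and the study's methods as older. Each tissue gave 2 libraries from wild-type (WT) mice, with no treatment, and 2 libraries from Setd1a+/- mice, which carry a heterozygous frameshift deletion made with CRISPR-Cas9 in every cell. Setd1a is a histone H3 lysine 4 methyltransferase and a schizophrenia risk gene, and the mutants were compared with WT littermates. Every library pooled tissue from 2 mice, and the striatum was digested longer than the PFC, so that tissue, dissection and digestion time cannot be told apart.

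The libraries held 15154268 to 26277553 UMIs, of which annotated cells held 39.6% to 55.3%. Annotated cells numbered 8997 in the PFC and 14690 in the striatum, 1508 to 4361 per library, with medians of 2302.5 to 3042 UMIs per cell. Setd1a counts per 1000000 UMIs (CPM) over all annotated cells were 8.45 and 11.2 in PFC WT 1 and 2 against 5.59 and 9.33 in PFC Setd1a+/- 1 and 2, and 13.4 and 15.2 against 9.16 and 12.5 in the striatum. Setd1a+/- 2 of the PFC lay between the WT libraries, and a 3' tag of a frameshift allele can still be counted. The defining markers of each annotated type were highest in that type for 24 of 24 genes in the PFC and 28 of 30 in the striatum, where the interneuron markers Gad2 and Slc32a1 were highest in D1 medium spiny neurons (MSNs). Any 2 libraries shared 1 to 24 cell barcodes.

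Levels below are CPM of the UMIs summed over the cells of 1 type in 1 library, given as mean ± SD over the 4 libraries of a tissue. Barcodes with 1 to 50 UMIs, too few for a cell, give the composition of the free RNA that enters every droplet. Of the 144 pairs of a gene with a cell type, 43 lay above the free RNA of their own library in all 4 libraries, 37 when barcodes of 1 to 10 UMIs were used instead and 50 with barcodes of 51 to 100. How well the RNA of each gene is captured was not measured, so levels are compared between cell types for 1 gene and not between genes.

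**Figure D1:**
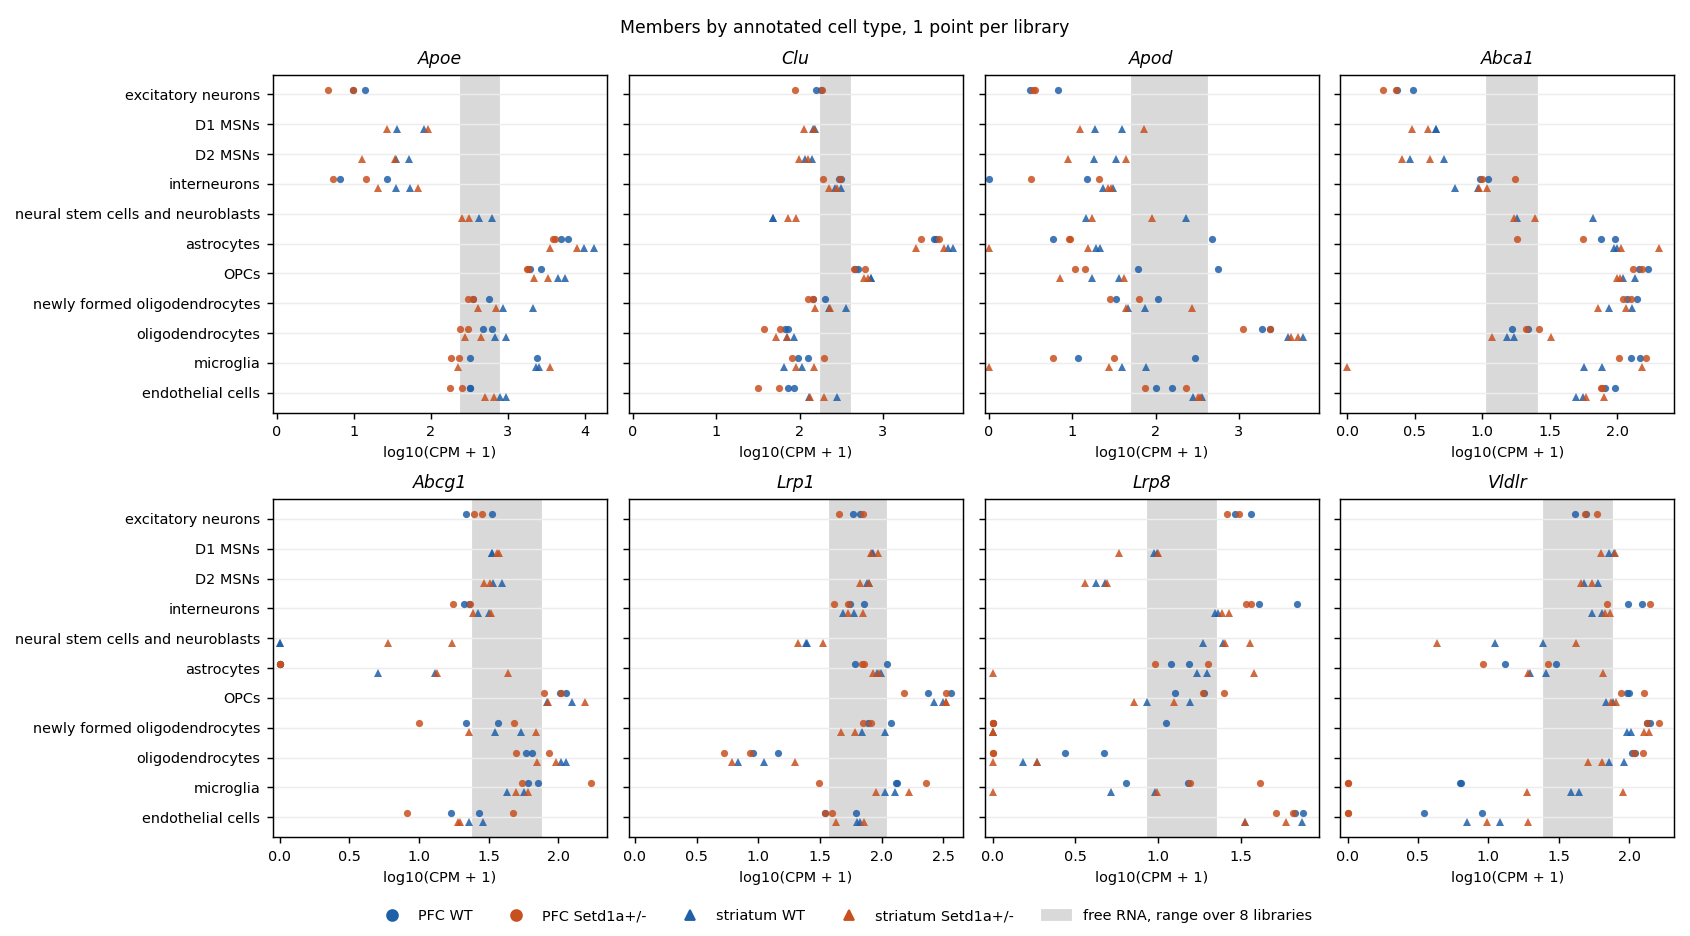
CPM of each gene, on a log10(CPM + 1) axis, in each annotated cell type, with 1 point per library (circles PFC, triangles striatum, blue WT, orange Setd1a+/-) and the range of the free RNA over the 8 libraries as a grey band. Apoe and Clu stand highest in astrocytes and Apod in oligodendrocytes, while in the neurons Apoe lies below the band.

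Apoe (chr7:19696109-19699188, minus strand, GRCm38), the main protein of brain lipoprotein particles, was highest in astrocytes. In PFC astrocytes its CPM was 4904 and 6038 in the WT libraries and 4101 and 3899 in the Setd1a+/- libraries (4736 ± 970, n = 4), and in striatal astrocytes 9756 and 13119 in WT and 8070 and 3525 in Setd1a+/- (8617 ± 3991, n = 4). Setd1a+/- 2 was the lowest library in both tissues, and in the striatum it lay far under the other 3. Oligodendrocyte progenitor cells (OPCs) came next, with 1980, 2751, 1812 and 1762 in the PFC and 4532, 5489, 3366 and 2220 in the striatum for WT 1, WT 2, Setd1a+/- 1 and Setd1a+/- 2. The PFC ranges of astrocytes and OPCs did not overlap, and the striatal ranges did, through the low astrocyte value of Setd1a+/- 2. The free RNA held 257 to 410 CPM of Apoe in the PFC and 245 to 772 in the striatum. Only astrocytes and OPCs in the PFC, and those types with endothelial cells in the striatum, lay above it in all 4 libraries. PFC interneurons at 4.4 to 25.9, excitatory neurons at 3.7 to 13.1 and D1 MSNs at 26.1 to 91.9 CPM lay below it in every library. At least 1 Apoe UMI was seen in a mean of 99.7% of PFC astrocytes and 97.2% of the same cells thinned to 1000 UMIs.

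In microglia, the resident macrophages of the brain, the Apoe level differed widely between libraries. PFC microglia held 321, 2396, 233 and 185 CPM in WT 1, WT 2, Setd1a+/- 1 and Setd1a+/- 2, and striatal microglia 2330, 2530, 3570 and 224. WT 2 stood alone above the rest in the PFC and Setd1a+/- 2 alone below the rest in the striatum.

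Clu (chr14:65968483-65981547, plus strand), or clusterin, a secreted chaperone of lipoprotein particles, was an astrocyte transcript in both tissues. Its CPM in PFC astrocytes was 4380 and 4175 in WT and 2845 and 4754 in Setd1a+/- (mean 4039), and in striatal astrocytes 6025 and 6962 in WT and 5498 and 2506 in Setd1a+/- (mean 5248). OPCs followed with 446 to 613 in the PFC and 598 to 728 in the striatum, and no OPC library reached an astrocyte library of its tissue. Astrocytes and OPCs were also where Clu lay above the free RNA, at 182 to 351 CPM in the PFC and 231 to 398 in the striatum, in all libraries. In barcodes of 51 to 100 UMIs PFC WT 1 held 636 CPM, above every PFC OPC library. Interneurons came next in both tissues, with means of 277 CPM in the PFC, which overlapped the free RNA, and 270.4 in the striatum, where every library lay below its own free RNA.

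Apod (chr16:31296192-31314808, minus strand), a lipocalin that binds small lipids and is only distantly related to the other apolipoproteins, was the oligodendrocyte member. Oligodendrocytes held a mean of 85.8% of the annotated Apod UMIs in the PFC and 85.9% in the striatum. The oligodendrocyte CPM was 1918 and 2372 in WT and 1112 and 2371 in Setd1a+/- in the PFC (mean 1943), and 3914 and 5859 in WT and 5167 and 4192 in Setd1a+/- in the striatum (mean 4783). All 4 striatal libraries lay above all 4 PFC libraries. Oligodendrocytes were the only type above the free RNA (50.6 to 114 CPM in the PFC, 116 to 415 in the striatum) in all 4 libraries of a tissue. Against barcodes of 51 to 100 UMIs, 2 types lay above it in each tissue. Newly formed oligodendrocytes, a stage earlier in the lineage, held 27.3 to 107 CPM in the PFC and 43.7 to 275 in the striatum, below every oligodendrocyte library. In PFC OPCs the values were 61.5, 566, 9.9 and 13.4 CPM, with WT 2 far above the rest.

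The exporters were highest in glial types. Abca1 (chr4:53030787-53159895, minus strand) moves cholesterol and phospholipid onto lipid-poor apolipoproteins, and its CPM in PFC OPCs was 168, 143, 152 and 129 (148 ± 16.4, n = 4), followed by means of 134 in microglia and 123 in newly formed oligodendrocytes. These 3 PFC types overlapped. In striatal astrocytes Abca1 was at 92.7, 97.8, 105 and 202, the last in Setd1a+/- 2 from 31 cells and 19 UMIs. Without 10 cells that held at least 3 UMIs of ependymal genes, the value of Setd1a+/- 2 was 99.2. Striatal OPCs stood at 109, 134, 104 and 98.6, so that the leading types there overlapped too. The endothelial class, at means of 81.4 CPM in the PFC and 59.6 in the striatum, held 29.6% and 29.7% of the Abca1 UMIs. Striatal D1 and D2 MSNs held means of 3.0 and 2.7 CPM, under the free RNA of 9.9 to 22.1.

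Abcg1 (chr17:31057675-31117988, plus strand), which loads cholesterol onto particles that already hold lipid, was highest in OPCs at 112, 102, 105 and 77.7 CPM in the PFC and 82.4, 124, 83.5 and 154 in the striatum. PFC microglia came next at 70.9, 59.5, 172 and 53.7, of which Setd1a+/- 1 lay above every OPC library. PFC oligodendrocytes held 48.6 to 85.4 CPM and striatal ones 69.2 to 113, and the ranges of oligodendrocytes and OPCs overlapped in each tissue. Excitatory neurons, at a mean of 26.1 CPM, held 41.0% of the Abcg1 UMIs of the PFC, beside 55.3% of all annotated UMIs there. PFC astrocytes gave 0 Abcg1 UMIs in 554 cells over the 4 libraries, which allows a level of up to 2.56 CPM by counting error alone, while their striatal counterparts gave 12.0, 4.1, 12.4 and 42.5 CPM, the last from 4 UMIs in Setd1a+/- 2. Without the cells with at least 3 UMIs of ependymal genes, described below, the striatal values were 6.17, 4.44, 6.04 and 0. The astrocytes of both tissues lay under the free RNA of Abcg1, at 23.2 to 37.4 CPM in the PFC and 30.9 to 74.3 in the striatum, except for Setd1a+/- 2 of the striatum.

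Over the 18 mean profiles of a cell type in a tissue, Apoe and Abca1 were the 2 members with the most alike pattern on a log2(CPM + 1) scale (Pearson r = 0.845, Spearman rho = 0.740 across cell types, which share libraries and depth). The next pairs were Apoe with Clu (r = 0.490) and Clu with Lrp1 (r = 0.488), and the least alike were Lrp1 with Apod (r = -0.581) and Lrp8 with Vldlr (r = -0.565). The 250 bases before the RefSeq start of Apoe (chr7:19699189-19699438) and Abca1 (chr4:53159896-53160145), both on the minus strand of GRCm38.p6, are shown because these genes had the most alike pattern, 5′ to 3′ in lower case with a GC box (GGGCGG) or a TATA box (TATAAA), searched on both strands, in capitals.
Apoe: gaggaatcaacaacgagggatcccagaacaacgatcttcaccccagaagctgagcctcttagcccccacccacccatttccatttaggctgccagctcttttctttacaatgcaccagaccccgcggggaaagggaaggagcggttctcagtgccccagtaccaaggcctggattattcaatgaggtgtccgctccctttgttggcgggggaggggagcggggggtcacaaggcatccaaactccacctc
Abca1: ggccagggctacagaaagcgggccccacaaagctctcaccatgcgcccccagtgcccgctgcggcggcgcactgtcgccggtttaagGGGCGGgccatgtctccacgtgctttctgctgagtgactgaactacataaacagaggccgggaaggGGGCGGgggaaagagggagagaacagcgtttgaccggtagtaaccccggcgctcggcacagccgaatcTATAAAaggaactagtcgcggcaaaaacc
The Abca1 stretch, 61.6% G and C, held 2 GC boxes and 1 TATA box, and the Apoe stretch, 57.2% G and C, held neither run of letters. A GC box was present in 32.7% and a TATA box in 12.4% of the 32851 promoter windows of that length.

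Among the receptors, Lrp1 (chr10:127538161-127621148, minus strand), a large endocytic receptor for Apoe particles, had its highest level in OPCs. Its CPM in OPCs was 237 and 368 in WT and 152 and 332 in Setd1a+/- in the PFC, and 313 and 266 in WT and 330 and 333 in Setd1a+/- in the striatum (311 ± 31.1, n = 4). Every striatal OPC library lay above every other striatal type, of which microglia came next at 89.6 to 165, while the PFC ranges of OPCs and microglia overlapped. Oligodendrocytes, which arise from OPCs, stood at the other end with 4.3 to 13.6 CPM in the PFC and 5.1 to 18.9 in the striatum, below the free RNA in all libraries. Newly formed oligodendrocytes lay between them at means of 86.4 and 70.0. Mean CPM was 59.4 in excitatory neurons, 85.0 in D1 and 74.4 in D2 MSNs, with both MSN means under the striatal free RNA of 90.5 to 108. Excitatory neurons held 48.0% of the Lrp1 UMIs of the PFC and OPCs 25.6%, beside 55.3% and 6.59% of all annotated UMIs. In the striatum D1 MSNs held 32.5%, D2 MSNs 18.7% and OPCs 20.3%, beside 30.1%, 20.3% and 5.18% of all annotated UMIs.

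Lrp8 (chr4:107802261-107876840, plus strand) stood highest in the endothelial class, with 74.6, 66.3, 64.6 and 50.7 CPM in the PFC and 73.1, 32.9, 58.4 and 32.8 in the striatum. Interneurons held 68.6, 39.8, 35.5 and 33.1 in the PFC and 21.2, 22.2, 25.9 and 23.6 in the striatum, which overlapped the endothelial range in the PFC but not in the striatum. Excitatory neurons followed in the PFC at 25.0 to 35.8, and neural stem cells and neuroblasts in the striatum at 17.6 to 35.1. These types were above the free RNA in all 4 libraries. Both classes of MSN held little, 4.8 to 9.0 CPM in D1 and 2.6 to 3.9 in D2 MSNs, and D1 was the higher class in each library. The striatal free RNA held 7.65 to 15.0 CPM of Lrp8, above every D2 value and overlapping the D1 range. Newly formed oligodendrocytes gave a mean of 2.6 CPM in the PFC and 0 UMIs in 165 striatal cells, which allows up to 6.04 CPM.

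Vldlr (chr19:27216484-27254231, plus strand), the other Reelin receptor, was led by other types. Newly formed oligodendrocytes led in both tissues, with 140, 133, 133 and 161 CPM in the PFC and 102, 95.2, 126 and 138 in the striatum. Every striatal library lay above those of the other types. Oligodendrocytes (mean 111), interneurons (107) and OPCs (102) came next in the PFC and overlapped one another, and the highest interneuron library (139) also overlapped the leading type. The striatal followers, OPCs (74.2), D1 MSNs (72.3), oligodendrocytes (69.0) and interneurons (63.6), overlapped as well. D1 MSNs held 76.7, 71.2, 62.4 and 78.9 CPM against 58.9, 46.8, 44.5 and 53.6 in D2 MSNs, without overlap. The free RNA of these libraries held 51.3, 49.5, 52.2 and 75.1, below D1 MSNs in each and above D2 MSNs in all but WT 1. The endothelial class, where Lrp8 led, gave 0 to 8.0 CPM of Vldlr in the PFC and 6.0 to 18.2 in the striatum, below the free RNA throughout.

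The 7 annotated subtypes of PFC excitatory neurons differed less than the cell types did. Vldlr ran from 72.1 ± 26.5 CPM in the superficial-layer subtype named for Myh7 and 63.1 ± 7.25 in that named for Cux2 to 27.1 ± 8.82 in the deep-layer subtype named for Foxp2 (n = 4 libraries each). Lrp8 ran from 39.9 ± 7.61 in the deep-layer Etv1 subtype to 20.2 ± 4.60 in the deep-layer Tshz2 subtype, which was at the same time the highest for Clu (225 ± 43.8). The PFC free RNA held 182 to 351 CPM of Clu, 23.9 to 42.3 of Vldlr and 13.8 to 21.5 of Lrp8. Clu in the Tshz2 subtype and the lowest subtypes for Vldlr and Lrp8 overlapped these ranges. Neighbours in each of these orders overlapped over libraries.

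The share of cells with at least 1 UMI depends on the depth of the cells. After thinning every cell to 1000 UMIs, 9 of the 16 leading types by share stayed the same. The others moved to OPCs for Abca1 and Abcg1 in both tissues, to newly formed oligodendrocytes for Vldlr in both tissues and to endothelial cells for Lrp8 in the PFC. OPCs carried an Lrp1 UMI in 37.6% of PFC cells (23.1% thinned) and 38.6% of striatal cells (27.2% thinned).

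Among 12786 genes with at least 200 UMIs, those with the most alike pattern over the 18 profiles by Pearson r were Tspan31 (0.919), Arsk (0.913) and Bckdha (0.909) for Apoe, and Sfxn5 (0.968), Slc6a11 (0.941), an astrocytic GABA transporter, and Ddt (0.929) for Clu. For Apod they were Car14 (0.889), Aspa (0.874), an oligodendrocyte enzyme, and Pde8a (0.873). Acads, Tmco1 and Cpne3 came first for Abca1 (0.939 to 0.941), and Dock10, Dbnl and Sdf4 for Abcg1 (0.802 to 0.845). Lrp1 was most like Ccdc107, Cd302 and Pid1 (0.887 to 0.904), Lrp8 like Pik3ca, Ccdc82 and Capn7 (0.862 to 0.897), and Vldlr like Ss18l2, Syt11 and Mapt (0.912 to 0.926).

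Several annotated types held cells with UMIs from marker genes of another type, and some members differed between such cells and the rest. Cells were split at 3 UMIs summed over a list. The split is a description with no test, and the part of free RNA or of doublets in it was not tested. In striatal microglia, 18 of 271 cells reached it for 5 genes of border macrophages such as Mrc1 and Pf4, none of them in Setd1a+/- 2. Apoe was at 29244 to 33699 CPM in these cells and at 224 to 2079 in the remaining microglia, and they held 61.8% of the Apoe UMIs of the class. Abca1 stood at a mean of 393 in the same cells and 57.7 in the rest. In PFC microglia 2 of 482 cells reached the split, both in WT 2, with 18871 CPM of Apoe, and the other microglia of that library held 1855 CPM.

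Most of the annotated endothelial class reached the split for mural genes such as Rgs5 and Pdgfrb, which mark pericytes and smooth muscle, with 1064 of 1562 cells in the PFC and 1432 of 1998 in the striatum. These cells held 96.6% of the Lrp1 UMIs of the class in the PFC and 87.7% in the striatum, at a mean of 53.7 against 7.19 CPM and of 70.0 against 29.9. Apod in the striatum was at 381 in them and 151 in the rest, higher in 4 of 4 libraries, and in the PFC at 143 and 132, higher in 2 of 4. Lrp8, led by this class, was at 64.7 and 64.0 in the PFC, and in the striatum 1.16 times as high in them as in the rest (4 of 4 libraries). Cells that reached it for fibroblast genes such as Dcn and Lum were few, 22 and 50, and had 1032 CPM of Apod in the PFC and 2995 in the striatum, against 117 and 214 in the rest. In all 4 libraries of both tissues Apod and Abca1 were higher in the fibroblast-list cells.

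Among striatal astrocytes 68 of 857 cells reached the split for genes such as Ccdc153 of ependymal cells, which line the ventricles, and among PFC astrocytes 0 of 554. Apoe in the 68 cells was 1963 to 4672 CPM against 4883 to 13878 in the other astrocytes, and Clu a mean of 2060 against 5977, lower in 4 of 4 libraries for both. Vldlr was higher in them (62.8 against 20.8), also in 4 of 4 libraries. They made up 12 of 258, 11 of 214 and 35 of 354 astrocytes in WT 1, WT 2 and Setd1a+/- 1 but 10 of 31 in Setd1a+/- 2, the library with the lowest astrocyte Apoe.

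**Figure D2:**
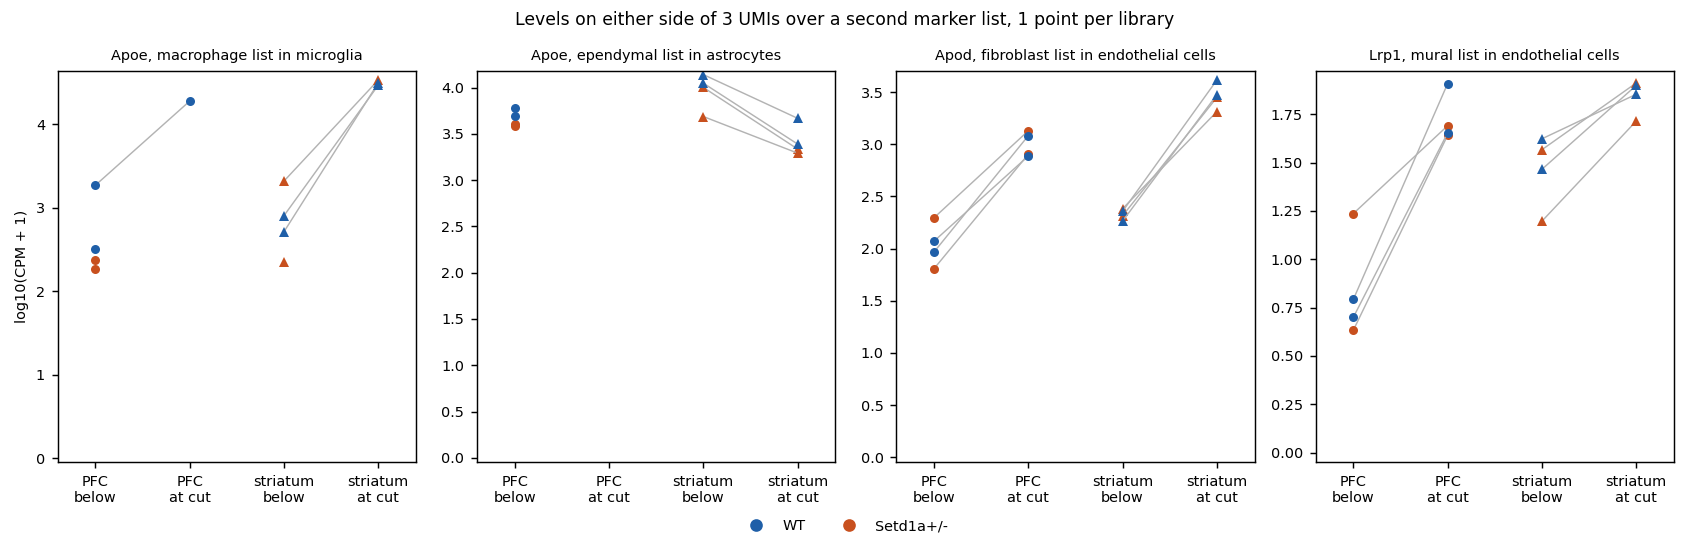
CPM on a log10(CPM + 1) axis in cells under and at or above 3 UMIs of a marker list, 1 line per library, for Apoe in microglia (macrophage list), Apoe in astrocytes (ependymal list) and Apod and Lrp1 in the endothelial class (fibroblast and mural lists). Apoe stands at 29244 to 33699 in the macrophage-list cells of the striatum and at 1963 to 4672 in the ependymal-list cells.

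The tissues were compared in the 7 cell types annotated in both, with genotype as a second term and edgeR's quasi-likelihood test over all genes (called at FDR < 0.05 and FC > 1.5, values as log2 striatum over PFC ± SE, 4 libraries each). Of 47 tests of a member in a type, 9 were called, 7 higher in the striatum (2 of them in genes that passed the filter on low counts only through the striatum) and 2 lower, while 7.49% of all tested genes were called over the same types. The log2 FC of Apoe was positive in each type, but the types share the same libraries and the interneuron value supports no difference. The free RNA held a mean of 523 CPM of Apoe in the striatum and 325 in the PFC in barcodes with 1 to 50 UMIs, with overlapping libraries, and 507 and 607 in those with 51 to 100, and its part in these values was not tested. As the labels do not say which mice were pooled in which library, p-values measure the spread between these libraries.

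Apod in oligodendrocytes, given per library above, was higher in the striatum by 1.33 ± 0.23 (FDR = 0.0079), where 3.12% of genes were called. The call was lost without striatum WT 2 (FDR = 0.0608). Abcg1 in the same type was at 0.67 ± 0.21 (FDR = 0.11) and was called only with the replicate block (0.66, FDR = 0.0498) or with no filter (0.72, FDR = 0.0295) among the fits to all libraries. Apoe in OPCs was higher by 0.89 ± 0.17 (FDR = 0.038), in a type where 0.336% of genes passed, although the lowest striatal library, Setd1a+/- 2, overlapped PFC WT 2. Leaving out PFC WT 1, striatum WT 1, striatum WT 2 or striatum Setd1a+/- 1 ended that call, with log2 FC from 0.73 to 1.04 over all 8 omissions, and in the WT libraries alone it was not called either (1.08, FDR = 0.28).

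In astrocytes 12.6% of genes were called and 0 members, with Apoe at 0.74 ± 0.26 (FDR = 0.074) and Clu at 0.27 ± 0.27 (FDR = 0.58). Apoe passed without striatum Setd1a+/- 2 (log2 FC = 0.98, FDR = 0.0011), with scaling by library size alone (0.83, FDR = 0.034), in the WT libraries alone (0.99, FDR = 0.030) and with no filter (0.79, FDR = 0.0082). Without the ependymal-list cells, an alternative chosen after the data were seen, the genes called in astrocytes went from 829 to 118 and Apoe was among them (1.03, FDR = 0.025). In newly formed oligodendrocytes 0.0797% of genes and 0 members were called, with Apoe at 1.27 ± 0.30 (FDR = 0.12), called by DESeq2 (1.28, FDR = 0.049) and with the replicate block (1.23, FDR = 0.012). In microglia 20.7% of genes and 0 members were called, and Apoe was at 1.82 ± 0.80 (FDR = 0.13), or 0.67 (FDR = 0.59) without macrophage-list cells and 2.93 (FDR = 0.0039) without PFC WT 2.

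The endothelial class gave 3 calls beside 7.31% of genes. Apoe was at 323, 325, 179 and 251 CPM in the PFC and 965, 797, 662 and 510 in the striatum, without overlap (1.47 ± 0.17, FDR = 0.00055), below the free RNA in every PFC library and above that of barcodes with 1 to 50 UMIs in every striatal one. Against barcodes of 1 to 10 UMIs, at 422 to 1039 CPM, only Setd1a+/- 2 of the striatum lay above it, and against those of 51 to 100 UMIs all but Setd1a+/- 1. Clu, at 30.8 to 85.7 against 130 to 281, rose by 1.69 ± 0.29 (FDR = 0.0041), but lay below the free RNA in every library and was not called in the WT libraries alone (1.37, FDR = 0.084). Apod, at 72.9 to 232 against 280 to 361, rose by 1.29 ± 0.30 (FDR = 0.020), a call lost without PFC WT 1 or striatum WT 1. The free RNA held a mean of 95.3 CPM of Apod in the PFC and 267 in the striatum. That of striatum Setd1a+/- 1, at 415, exceeded every endothelial library, and the part of free RNA in the Apod call was not tested. Without the mural-list and fibroblast-list cells, also chosen after the data were seen, Apoe (1.65) and Clu (2.20) were still called and Apod was not (0.27, FDR = 0.66).

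Interneurons held the only calls of the Reelin receptors, beside 12% of genes called. Lrp8, given per library above, was lower in the striatum with a log2 FC of -0.90 ± 0.26 (FDR = 0.034), without overlap. Vldlr was at 97.2, 122, 68.8 and 139 CPM in the PFC and 53.0, 63.3, 66.5 and 71.7 in the striatum, with a log2 FC of -0.72 ± 0.22 (FDR = 0.044), with striatum Setd1a+/- 2 above PFC Setd1a+/- 1. Apoe, at 5.7, 25.9, 4.4 and 13.2 against 34.8, 53.5, 67.7 and 19.8, was higher in the striatum (1.75 ± 0.49, FDR = 0.028), and Apod, at 0 to 19.9 against 22.7 to 29.6, likewise (1.61 ± 0.50, FDR = 0.046). Both lay below the free RNA in every library, with 2 to 13 and 0 to 7 UMIs in a PFC library, and passed the filter on low counts through the striatum, so that these 2 calls support no difference. Leaving out a library ended the Lrp8 call in 4 of 8 cases, the Vldlr call in 7, the Apoe call in 4 and the Apod call in 6, and DESeq2 called neither receptor.

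**Figure D3:**
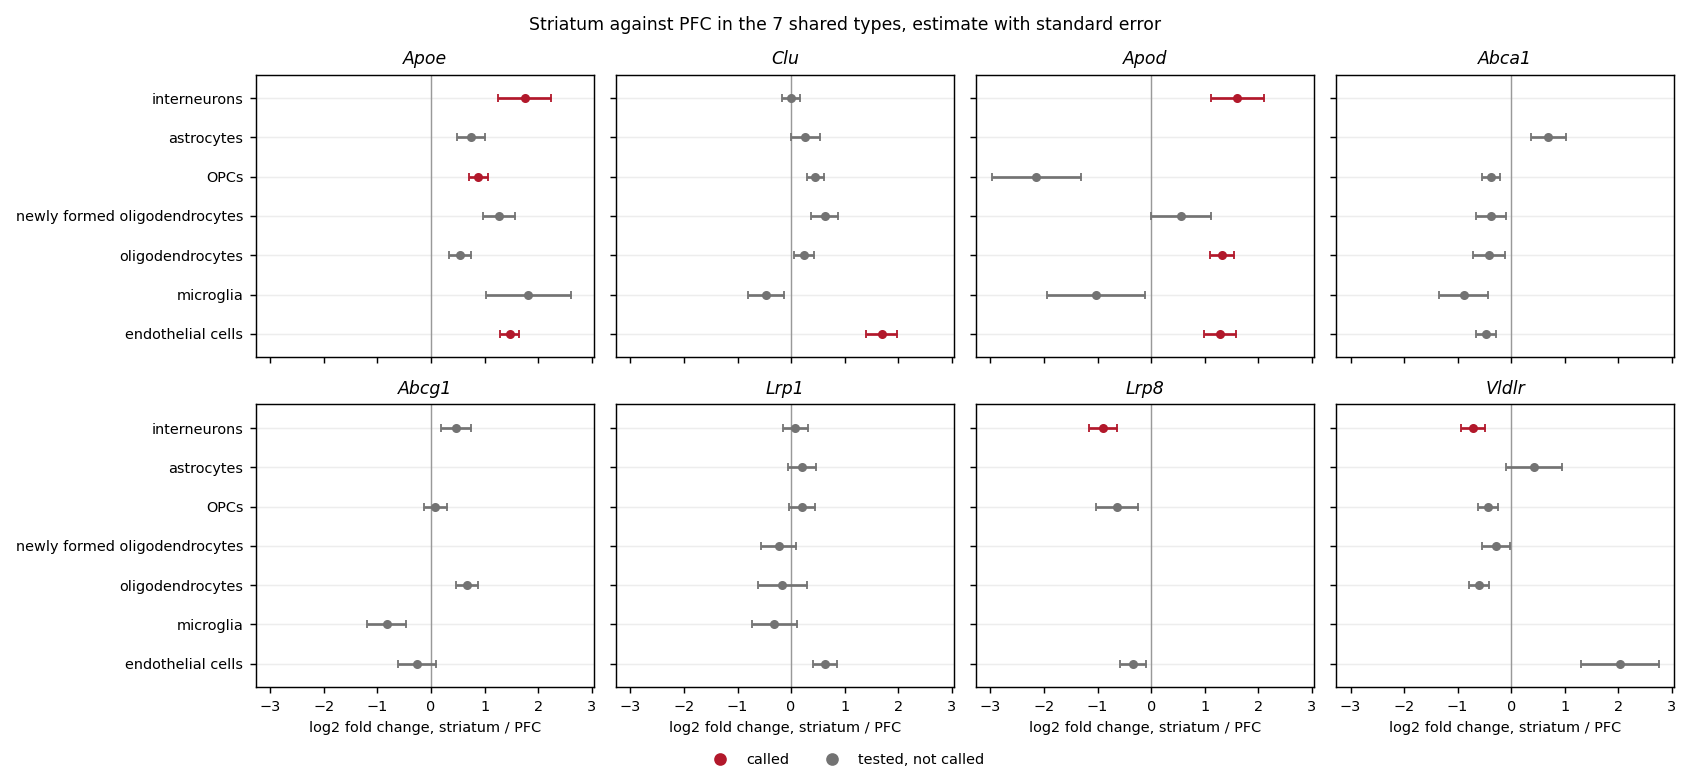
Log2 FC of the striatum over the PFC (positive is higher in the striatum) with its SE for each tested member in the 7 shared cell types, called values in red. The called Apoe values in OPCs and the endothelial class lie above 0, and the 2 receptors called in interneurons lie below it.

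Setd1a+/- was compared with WT within each type (called at FDR < 0.05 with FC > 1.5 in the PFC and FC > 2 in the striatum, the study's own limits). The percentage of genes called was 0 in each of the 8 PFC types and in 9 of the 10 striatal types, and 0.0397 in D2 MSNs, where 4 globin genes were lower and no member was called. Of the members, 0 of 47 tests were called by edgeR in the PFC and 0 of 62 in the striatum, with 4 and 6 at an unadjusted p under 0.05, and DESeq2 called 0 in both. Over all genes, 869 of 51145 PFC tests and 1922 of 73479 striatal tests had an unadjusted p under 0.05.

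Apoe made up 8 of the 10 member tests at an unadjusted p under 0.05. Its log2 FC was negative in 7 of 7 PFC types and 9 of 10 striatal types tested, from -2.72 to 0.05, with a smallest FDR of 0.86. The types of a tissue share the same 4 libraries and the same free RNA, so that these signs are not independent of one another. The genotypes did not overlap in 13 of the 18 types, with Setd1a+/- as the lower in each. For Clu, Setd1a+/- lay below WT without overlap in 6 types and above it in 1. The share of all genes whose genotypes part in this way was not counted, so these counts have no reference. In striatal OPCs, whose values are given above, the log2 FC of Apoe was -0.82 ± 0.20. Striatal oligodendrocytes held 684 and 949 CPM in WT and 454 and 277 in Setd1a+/- (-1.07), and PFC oligodendrocytes 631 and 479 against 237 and 308 (-0.96). In PFC astrocytes the log2 FC was -0.49 ± 0.23, and in striatal astrocytes -1.03 ± 0.46, or -0.73 without the ependymal-list cells. The free RNA held 410 and 346 CPM of Apoe in WT and 285 and 257 in Setd1a+/- of the PFC, without overlap. In PFC barcodes of 1 to 10 UMIs it held 516 and 532 in WT and 338 and 425 in Setd1a+/-, also without overlap. In those of 51 to 100 UMIs it held 896 and 293 in WT and 918 and 319 in Setd1a+/-, with overlap. The striatal free RNA held 512 and 772 in WT and 565 and 245 in Setd1a+/-, with overlap. The part of free RNA in the result was not tested. The PFC microglia value of -2.72 rested on WT 2 at 2396 CPM.

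The study prepared 1 WT and 1 mutant sample in each biological replicate. With the replicate number as a block, 3 member tests were called, Apoe in striatal oligodendrocytes (-1.08, FDR = 0.0094) and newly formed oligodendrocytes (-1.27, FDR = 0.025) and Apod in PFC OPCs (-4.43, FDR = 1.1e-05), while 26 genes were called over the PFC types and 79 over the striatal types in place of 0 and 4. Apoe was negative in 17 of 17 types in that fit and in 15 of 17 by DESeq2, which called none. The Apod value in PFC OPCs, -4.80 without the block, became -2.36 without PFC WT 2 and -5.65, then called, without PFC WT 1. Of the Apod UMIs there, 13 of 447 cells of WT 2 carried 97.0% and 1 of 338 cells of WT 1 carried 85.4%. These cells were chosen for holding at least 10 Apod UMIs, and the Setd1a+/- libraries had 0 of them. Apod passed the filter on low counts in PFC OPCs through the WT libraries, with 41 and 434 UMIs against 5 in each Setd1a+/- library. Its calls in that type, with the block or without PFC WT 1, therefore support no difference between genotypes. Leaving out striatum Setd1a+/- 1, which left a single mutant library, called Apoe in striatal OPCs (-1.16), oligodendrocytes (-1.60) and microglia (-3.53), and leaving out striatum WT 1 called it in newly formed oligodendrocytes (-1.93). Apod in PFC astrocytes, not tested with all libraries, was called in the 3 omissions where it was tested (-5.81 to -4.75). WT 2 held 131 Apod UMIs there, 129 of them in 4 cells, against 2, 1 and 3 in WT 1, Setd1a+/- 1 and Setd1a+/- 2. The gene passed the filter on low counts only through WT 2, so that these calls support no difference between genotypes. Apod in striatal neural stem cells and neuroblasts was called without WT 1 (-1.64), but its value ran from -2.56 to 2.38 over the 4 omissions. With no filter on low counts the calls were Apod in PFC astrocytes (-4.71), OPCs (-4.79) and microglia (-3.34) and Apoe in PFC microglia (-2.77, FDR = 0.013). With all libraries the striatal microglia value was -0.25 ± 0.81, it ran from -3.53 to 0.65 over the omissions, and without the macrophage-list cells, which Setd1a+/- 2 lacked, it was 0.92 ± 0.73 (Apoe at 513 and 800.3 CPM in WT, 2079 and 224 in Setd1a+/-).

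**Figure D4:**
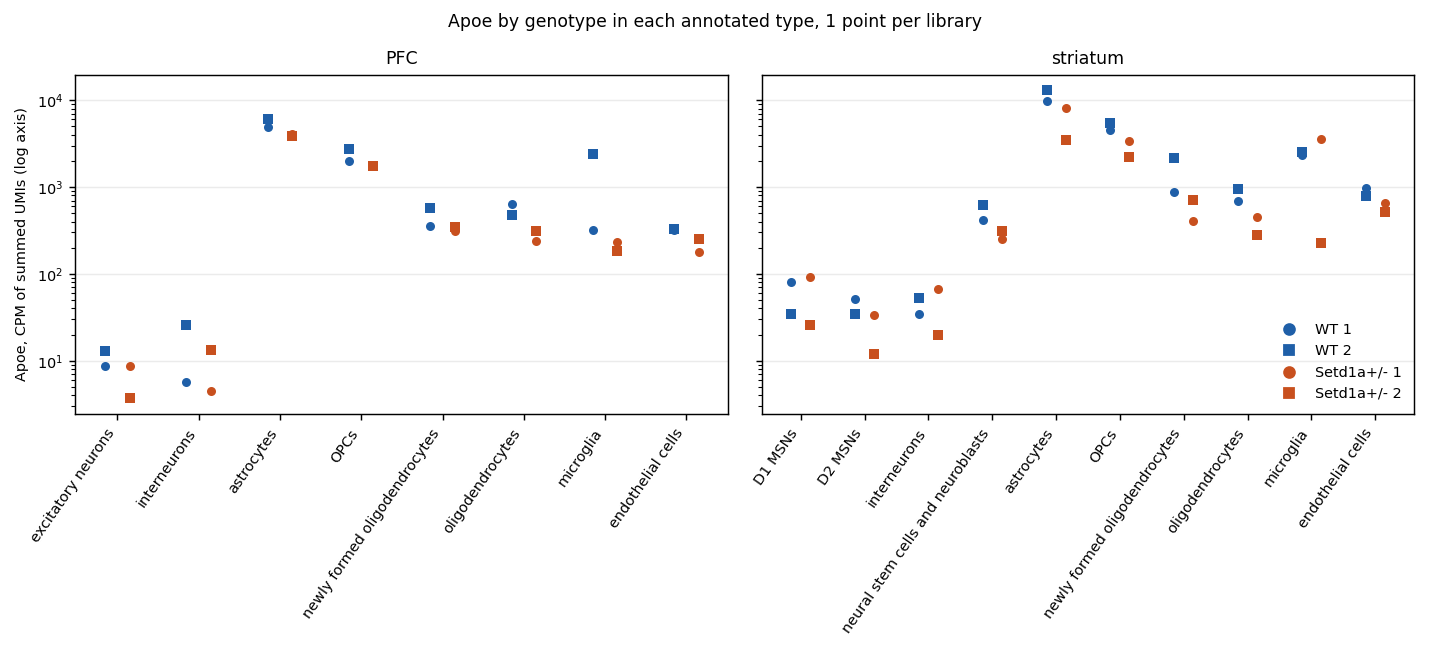
Apoe CPM on a log axis in each cell type of the PFC and the striatum, WT in blue and Setd1a+/- in orange, circles for replicate 1 and squares for replicate 2. Both Setd1a+/- points lie below both WT points in 13 of the 18 types, a count given without the share over all genes. None of these differences was called in the fit to all libraries with the filter on low counts and no block.

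The remaining members gave smaller values in their leading types. Clu in astrocytes was at -0.17 ± 0.29 in the PFC and -0.75 ± 0.43 in the striatum, and Apod in oligodendrocytes at -0.23 ± 0.37 and -0.04 ± 0.24 (log2 FC). Lrp1 in OPCs was at -0.33 ± 0.42 and 0.21 ± 0.20, Lrp8 in the endothelial class at -0.23 ± 0.25 and -0.10 ± 0.39, and Vldlr in newly formed oligodendrocytes at 0.08 ± 0.34 and 0.39 ± 0.38. Abca1 was at -0.14 ± 0.25 in PFC OPCs and 0.42 ± 0.35 in striatal astrocytes (-0.17 without the ependymal-list cells), and Abcg1 in OPCs at -0.22 ± 0.27 and 0.03 ± 0.31. For each of these 7 genes the SE exceeded the value in at least 1 tissue. A genotype effect that differed between the tissues was tested in the 7 shared types, where 0 of 47 member tests and 0% of genes were called by edgeR, with 3 member tests and 2.21% of all tests at an unadjusted p under 0.05, and 0 by DESeq2.

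Around the members, 51 further genes of particle proteins and lipases, transporters, receptors, Reelin signalling, liver X receptor regulation and sterol handling were listed. Between genotypes 0 of them were called in any of 18 types. Between tissues 9 calls were higher and 9 lower in the striatum over 171 tests, beside the 7.49% called among all genes, and the 3 named below are examples. Among the other calls, in both directions, were some in genes that passed the filter on low counts through 1 tissue only. In interneurons 3 of 26 tested genes of the list were called, beside 12% of all genes. Of the receptors, Trem2, a microglial receptor for lipids and Apoe, was lower in striatal microglia (-0.87). The microglial markers Cx3cr1, P2ry12 and Csf1r were lower there too, at means of 920, 787 and 874 CPM against 1658, 2218 and 1501 in the PFC. The Trem2 value is therefore not particular to that gene. Of Reelin signalling, the adaptor Dab1 was lower in striatal interneurons (-2.02), and the transporter Abca2 was higher there (0.94).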

How the data were processed

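Single-cell suspensions were run on the 10x platform, and the authors aligned reads to mm10 with Cell Ranger 3.0.2 and annotated cells with Seurat 3.2.0 after dropping barcodes under 800 genes or over 10% mitochondrial reads. The deposited matrices hold raw UMI counts, and the deposited cell table gave the cell types and subtypes. No doublet removal is given in the sources used here, and none was run. UMIs were summed per library and type (at least 10 cells in a test, with no minimum for the excitatory subtypes) and divided by the type's total for CPM, so counting error alone limits rare types. The members, lists and splits were chosen with earlier results of these data known. Every member was named in its leading type, wherever it was called, and with its 3 most alike genes. Sums were tested with edgeR 4.0.16 (TMM, genes passing filterByExpr at a minimum count of 10, quasi-likelihood, Benjamini-Hochberg per type), an approach that replaces the study's test over cells because cells of a library are not replicates. DESeq2 1.42.0, library size alone, no filter, the replicate block and leaving out each library were the alternatives. The fits were tested on simulated data. Deviations of same-numbered libraries correlated above 0.1 in 7 of the 8 PFC and in the 10 striatal types (r = 0.0056 to 0.591 in the PFC, 0.136 to 0.427 in the striatum), and by the methods each biological replicate prepared 1 WT with 1 mutant sample. Coordinates are those of GENCODE on GRCm38, and promoter sequences are from RefSeq.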

Additional observations from a re-analysis of the deposited data

Results flagged for a closer look

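In 8 of 94 groups of 4 libraries (a gene in a cell type of a tissue) a single library stood apart by Dixon's criterion at the 95% level, which chance passes in about 1 of 20 groups. PFC WT 2 was that library in 3 of them. Its microglia held 2396 CPM of Apoe, against 185 to 321 in the other libraries, and 297 CPM of Apod, against 4.88 to 30.4. Its OPCs held 566 CPM of Apod, against 9.87 to 61.5.

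Setd1a+/- 2 of the striatum, the library with the fewest glial cells, was that library in 3 more. Its astrocytes (31 cells) held 202 CPM of Abca1 from 19 UMIs, against 92.7 to 105, and 63.7 CPM of Vldlr from 6 UMIs, against 18.0 to 24.5. Without its 10 ependymal-list cells these were 99.2 CPM from 5 UMIs and 39.7 CPM from 2 UMIs. Its newly formed oligodendrocytes (22 cells) held 275 CPM of Apod from 12 UMIs, against 43.7 to 74.1.

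Setd1a+/- 1 of the PFC was low for Clu in interneurons (191 CPM, against 300.1 to 313) and high for Abcg1 in microglia (172 CPM from 17 UMIs in 46 cells, against 53.7 to 70.9).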

How the results depend on the processing

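Genes called between genotypes went from 0 in the PFC to 1 with DESeq2, 63 with no filter on low counts, 26 with the replicate block and 25 to 122 when a library was left out, and from 4 in the striatum to 110, 79 and 67 to 402 with no filter, the block and a library left out. Calls between tissues (3740) went to 6957 with no filter, 1201 in WT alone and 2221 (without PFC WT 1) to 5013 (without PFC WT 2), and interaction calls (0) to 26 with no filter and 0 to 4 with a library left out. Member calls between genotypes (0) became 4 with no filter, 3 with the replicate block and 0 to 3 with a library left out, and those between tissues (9) became 18 with no filter and 4 to 14 with a library left out. Genes called between tissues in astrocytes went from 829 to 118 without ependymal-list cells. Fits that leave 1 library in a group assume that it varies like the others. Beside the 3 member calls given for it, the block changed the calls of 2 members between tissues.

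Of single values, the sign turned for Abca1 in striatal astrocytes between genotypes without ependymal-list cells (0.42 to -0.17), and for Lrp1 (0.20 to -0.063) and Abcg1 (0.08 to -0.046) in OPCs between tissues in WT alone. Leaving out a library also turned signs between genotypes for Clu in PFC astrocytes (-0.72 to 0.20), Apod in PFC (-0.92 to 0.24) and striatal (-0.29 to 0.21) oligodendrocytes, Abcg1 in striatal OPCs (-0.28 to 0.60), Lrp1 in PFC OPCs (-1.03 to 0.15), Lrp8 in striatal endothelial cells (-0.68 to 0.59) and Vldlr in PFC newly formed oligodendrocytes (-0.062 to 0.28), and between tissues for Clu in astrocytes (-0.016 to 0.51) and Lrp1 (-0.029 to 0.43) and Abcg1 (-0.062 to 0.24) in OPCs. By Spearman's rho, 8 of the 24 most alike genes were still among the first 3. The cause of these shifts was not tested.

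Striatum Setd1a+/- 2 had 31 astrocytes and 22 newly formed oligodendrocytes, which limits the precision of its values.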

Other observations

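The Apod UMIs of astrocytes, OPCs and microglia in PFC WT 2 were carried by few cells. Among astrocytes, OPCs and microglia, 20 cells of all 8 libraries held at least 10 Apod UMIs, a limit chosen after the values were seen. PFC WT 2 held 19 of them, 4 astrocytes, 13 OPCs and 2 microglia, and PFC WT 1 held 1 OPC. In PFC WT 2 these cells carried 98.5% of the Apod UMIs of astrocytes, 97.0% of those of OPCs and 96.4% of those of microglia. The genes that led these cells over the remaining cells of their types included, after Apod, Npy, Mgst1, Kctd12, Frzb, Ptgds, Vtn and Fabp7.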
